A study of Mus musculus with 10 samples.

Results

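The genes described here mark the blood vessel lining of the mouse retina or carry VEGF and angiopoietin signals to it. They are the 10 genes Cldn5, Pecam1, Cdh5, Kdr, Flt1, Tek, Vegfa, Esam, Slco1c1 and Plvap, taken by symbol from the 19999 genes of the deposited count table. All 10 were found, and all 10 passed the filter on low counts that left 16852 genes. RNA came from retinas of Balb/c mice, an albino laboratory strain. The light-damaged group held 5 libraries of a light-induced retinal damage model, and the control group held 5 control libraries. The word vehicle stands in every library name, controls included. A compound named A74 in the design text is in neither group as labelled and was not analysed here. Genotype beyond the strain, sex, age, light dose and time after exposure are not given in the labels. The comparison made here is how RNA levels in light-damaged retina differed from those in control retina.

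Capillaries of the inner retina are lined by endothelial cells that seal the blood-retinal barrier. Cldn5 and Esam are tight junction proteins of that seal, Cdh5 (VE-cadherin) and Pecam1 hold endothelial cells to each other, and Slco1c1 carries thyroid hormone across the barrier. Plvap forms the diaphragms of fenestrated vessels such as those of the choroid and is low in vessels with a barrier. Vegfa, secreted in the eye mainly by glia and the pigment epithelium, signals through the receptor tyrosine kinase Kdr (VEGFR2), while Flt1 (VEGFR1) binds the ligand tightly and acts largely as a decoy. Tek (Tie2) is the receptor of the angiopoietins, which steady or loosen the vessel wall. In mice Kdr is also made by some retinal neurons and glia.

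Totals lay between 17900227 and 20337329 counts in light-damaged libraries and between 14652535 and 20699236 in controls. Nothing in the labels ties the libraries to separate animals, and the p-values therefore reflect library-to-library spread, which may be partly technical. Light-damaged replicates 1 and 2 stood apart. Xist, a long RNA made from the inactive X chromosome of females, had 17174 and 20414 counts there, between 1 and 6 counts in light-damaged replicates 3 to 5, and between 1 and 9 in controls. Lens genes summed to 7520 and 4015 CPM (counts scaled to library size) in those libraries, to between 21.4 and 118 CPM in light-damaged replicates 3 to 5, and to between 3.28 and 31.4 CPM in controls. The fold changes, ratio tests and list counts below were therefore also computed without replicates 1 and 2. The retina label fits the rod genes, led by rhodopsin, which summed to between 55328 and 77906 CPM in light-damaged libraries and between 59800.5 and 97956 CPM in controls.

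None of the 10 genes passed the test between the groups. In edgeR (quasi-likelihood test, Benjamini-Hochberg adjustment over all 16852 genes), 0 of 10 had an adjusted p under 0.05, against 13.2% of all genes tested (5.32% higher, 7.85% lower). With so few genes, nothing about the list follows from that share. Cldn5 and Slco1c1 had an unadjusted p under 0.05, as did 30.3% of all genes. DESeq2 called 1 of the 10, Cldn5, against 17.1% of all genes (7.7% higher, 9.44% lower), and limma-voom called 0, against 11.9% (4.77% higher, 7.15% lower). In the 8 libraries left without light-damaged replicates 1 and 2, edgeR called 0 of 10, against 2.34% of all genes (0.782% higher, 1.55% lower). Group means differed by at most a factor of 1.31, and 5 log2 fold changes were positive. The median log2 fold change was -0.00085 over the 10 genes and 0.0016 over all genes. Over all genes, 896 were higher and 1323 lower, and with library totals in place of TMM scaling 1147 were higher and 912 lower.

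**Figure D1:**
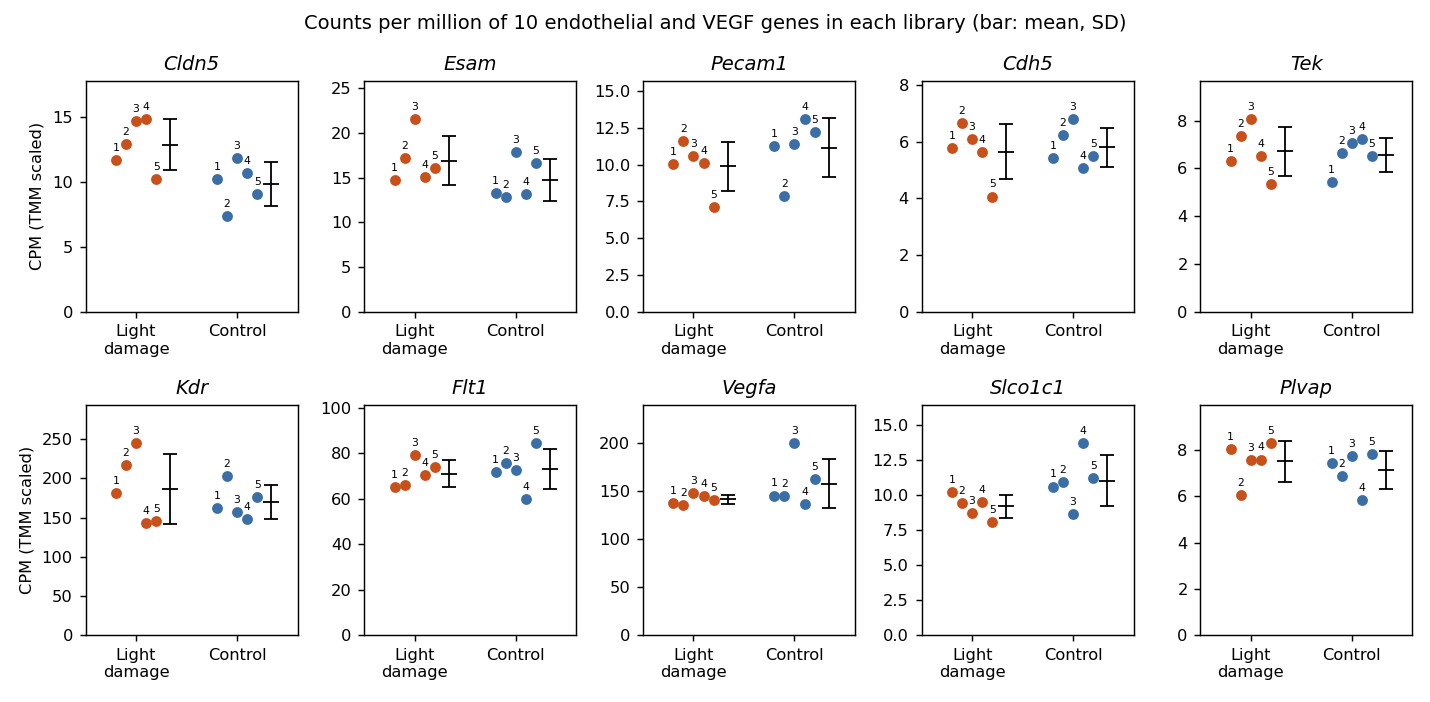
TMM-scaled CPM of each gene, 1 point per library with its replicate number, light-damaged libraries left of controls. Bars beside the points give the mean and SD of 5 libraries. The groups overlap for every gene. For Cldn5, 3 light-damaged libraries lie above the highest control at 11.8 CPM, and for Slco1c1 the highest light-damaged library, at 10.2 CPM, lies below 4 controls.

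Cldn5 (ENSMUSG00000041378), the main claudin of the barrier, had the largest difference of the 10. It stood at 11.6, 12.9, 14.7, 14.8 and 10.2 CPM in light-damaged replicates 1 to 5, against 10.2, 7.33, 11.8, 10.7 and 9.05 CPM in control replicates 1 to 5. All 5 light-damaged values lay above the control median, and 3 lay above the highest control. Means were 12.8 ± 1.96 CPM in light-damaged and 9.81 ± 1.71 CPM in control retina (SD, n = 5 each). In log2 terms the fold change was 0.39 (SE 0.13, 95% interval 0.11 to 0.67, edgeR adjusted p = 0.0642). DESeq2 gave an adjusted p of 0.0393, so the call depended on the tool. By edgeR it also passed without light-damaged replicate 5 (adjusted p = 0.0331) or without control replicate 3 (adjusted p = 0.0416). Without light-damaged replicates 1 and 2 the log2 fold change was 0.43 (edgeR adjusted p = 0.152). Raw counts were 184 to 310 in light-damaged libraries and 114 to 218 in controls. In bulk retina, a change in the number of cells of a type and a change in RNA per cell cannot be told apart.

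Esam (ENSMUSG00000001946), an adhesion molecule at the same junctions, stood at 14.7, 17.2, 21.5, 15.01 and 16.1 CPM in light-damaged replicates and at 13.3, 12.8, 17.9, 13.1 and 16.6 CPM in control replicates. Light-damaged replicate 3 was the highest of the 10 libraries, and the groups otherwise overlapped. Its log2 fold change was 0.20 (SE 0.12, 95% interval -0.06 to 0.45, edgeR adjusted p = 0.28).

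The adhesion genes that define endothelium most generally did not share that direction. Cdh5 (ENSMUSG00000031871) stood at 5.76, 6.67, 6.11, 5.65 and 4.06 CPM in light-damaged replicates and at 5.43, 6.24, 6.78, 5.07 and 5.48 CPM in control replicates. On the log2 scale its fold change was -0.04 (SE 0.14, 95% interval -0.34 to 0.27, edgeR adjusted p = 0.888). Light-damaged replicate 5 was lowest of all libraries, at 73 counts. Pecam1 (ENSMUSG00000020717), which blood leukocytes also make, stood at 10.01, 11.6, 10.6, 10.1 and 7.12 CPM in light-damaged replicates and at 11.3, 7.85, 11.4, 13.1 and 12.2 CPM in control replicates. Its log2 fold change was -0.17 (SE 0.14, 95% interval -0.47 to 0.13, edgeR adjusted p = 0.437). Light-damaged replicate 5 and control replicate 2 were low, and the remaining 8 libraries lay between 10.01 and 13.1 CPM. For Cdh5, the coefficient of variation within a group was 17.2% in light-damaged and 11.9% in control libraries, where counting error alone gives 9.87% in light-damaged and 10.3% in control libraries.

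Slco1c1 (ENSMUSG00000030235), the thyroid hormone transporter of barrier endothelium, stood at 10.2, 9.41, 8.76, 9.53 and 8.07 CPM in light-damaged replicates and at 10.6, 10.9, 8.62, 13.7 and 11.24 CPM in control replicates. All 5 light-damaged values were below the control median of 10.9 CPM, while control replicate 3 lay among them. Means were 9.20 ± 0.821 CPM in light-damaged and 11.02 ± 1.81 CPM in control retina (SD, n = 5 each). In log2 terms the fold change was -0.26 (SE 0.12, 95% interval -0.51 to -0.01, edgeR adjusted p = 0.157), with an adjusted p of 0.159 by DESeq2. Without control replicate 4, the highest library, it was -0.16, and without control replicate 3 it was -0.34. Cldn5 and Slco1c1, both proteins of the barrier, thus had the highest and the lowest fold change of the 10, and neither passed the test.

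Plvap (ENSMUSG00000034845), the diaphragm protein, stood at 8.05, 6.05, 7.57, 7.59 and 8.29 CPM in light-damaged replicates and at 7.44, 6.88, 7.76, 5.83 and 7.81 CPM in control replicates. The log2 fold change was 0.07 (SE 0.12, 95% interval -0.19 to 0.33, edgeR adjusted p = 0.738). Within-group variation was 11.6% in light-damaged and 11.5% in control libraries, where counting error gives 8.46% in light-damaged and 9.25% in control libraries. Markers of pigment epithelium and choroid summed to between 78.8 and 241 CPM in light-damaged libraries and between 30.6 and 107 CPM in controls, highest in light-damaged replicate 1. Their part in the Plvap values was not tested. Without light-damaged replicates 1 and 2 the log2 fold change of Plvap was 0.13.

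**Figure D2:**
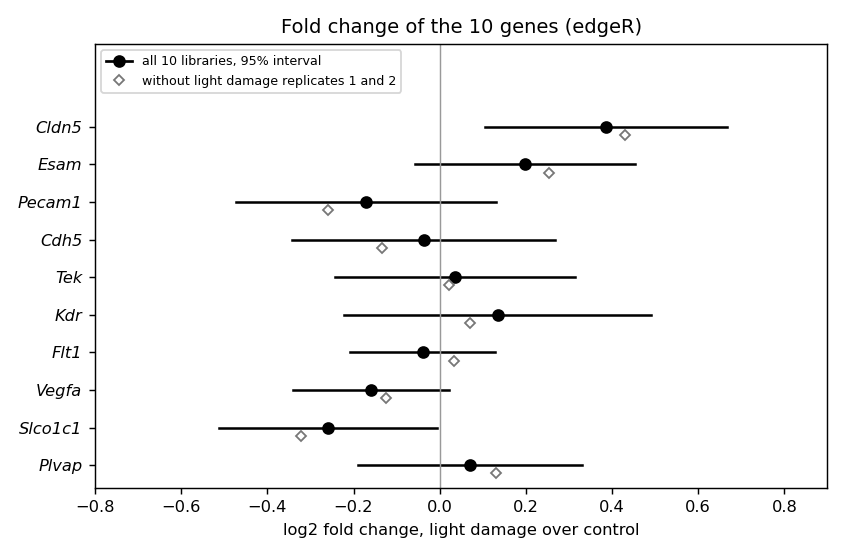
Log2 fold change of each gene, light-damaged over control, with its 95% interval from edgeR (filled points), and without light-damaged replicates 1 and 2 (open diamonds). Intervals of 8 genes cover 0. Those of Cldn5 and Slco1c1 do not, but neither gene passed after adjustment over 16852 genes.

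Neither VEGF receptor passed the test, and Kdr varied most within the light-damaged group. Kdr (ENSMUSG00000062960) stood at 181, 216, 245, 143 and 146 CPM in light-damaged replicates and at 162, 203, 158, 149 and 177 CPM in control replicates. Light-damaged replicates 2 and 3 lay above every control and replicates 4 and 5 below every control. The variation within the light-damaged group was 23.9%, against 12.6% in controls, while counting error gives 1.74% in light-damaged libraries and 1.89% in controls. The log2 fold change of Kdr was 0.13 (SE 0.16, 95% interval -0.22 to 0.49, edgeR adjusted p = 0.612). It was 0.02 without light-damaged replicate 3 and 0.22 without light-damaged replicate 4.

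Flt1 (ENSMUSG00000029648) stood at 65.3, 66.2, 79.5, 70.4 and 73.9 CPM in light-damaged replicates and at 72.0, 75.8, 72.8, 60.1 and 84.5 CPM in control replicates. Both extremes were control libraries. Its log2 fold change was -0.04 (SE 0.08, 95% interval -0.21 to 0.13, edgeR adjusted p = 0.776), the narrowest interval of the 10 genes. A change beyond a factor of 0.866 or 1.09 lies outside that interval. The table holds 1 count per gene, so membrane-bound and soluble Flt1, which come from the same gene, are summed. Tek (ENSMUSG00000006386) stood at 6.32, 7.34, 8.05, 6.54 and 5.34 CPM in light-damaged replicates and at 5.43, 6.62, 7.05, 7.23 and 6.51 CPM in control replicates. Its highest and its lowest value were both in light-damaged libraries. The log2 fold change of Tek was 0.04 (SE 0.13, 95% interval -0.24 to 0.31, edgeR adjusted p = 0.884).

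Vegfa (ENSMUSG00000023951), the ligand, stood at 137, 135, 148, 145 and 141 CPM in light-damaged replicates and at 145, 144, 199, 136 and 163 CPM in control replicates. Light-damaged libraries were close together, with a within-group variation of 3.59%, against 16.1% in controls, where replicate 3 stood above the rest. Means were 141 ± 5.06 CPM in light-damaged and 158 ± 25.3 CPM in control retina (SD, n = 5 each). In log2 terms the fold change was -0.16 (SE 0.09, 95% interval -0.34 to 0.02, edgeR adjusted p = 0.222), and -0.06 without control replicate 3. Müller glia markers, of cells that make Vegfa, summed to between 5523 and 7802 CPM in light-damaged libraries and between 4187 and 5605 CPM in controls. All 10 had a positive log2 fold change, and edgeR called 4 higher, against 5.32% of all genes. Without light-damaged replicates 1 and 2 it called 1 of 10, against 0.782% of all genes. Log2 fold changes of the 4 lay between 0.31 and 0.66 with all libraries and between 0.27 and 0.56 without those replicates. The part of Müller glia in the Vegfa values was not tested.

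Per kilobase of the longest annotated transcript, the order of the levels over all 10 libraries was Vegfa, Kdr, Flt1, Esam, Cldn5, Plvap, Slco1c1, Pecam1, Cdh5 and Tek. Vegfa averaged 40.9 ± 1.47 CPM per kb in light-damaged and 45.7 ± 7.34 in control libraries (SD, n = 5 each). Kdr averaged 31.4 ± 7.50 CPM per kb in light-damaged and 28.6 ± 3.61 in control libraries, and Cdh5 averaged 1.41 ± 0.243 in light-damaged and 1.45 ± 0.173 in control libraries. Within a library, Kdr per kb was between 17.0 and 27.0 times Cdh5 in light-damaged retina and between 15.7 and 21.98 times in controls. Flt1 was between 5.75 and 10.5 times Cdh5 in light-damaged retina and between 6.23 and 8.93 times in controls. The ranges of Vegfa and Kdr overlapped, as did those of Flt1, Esam and Cldn5 in that order, of Plvap, Slco1c1 and Pecam1, and of Cdh5 and Tek. Kdr and Flt1, Cldn5 and Plvap, and Pecam1 and Cdh5 did not overlap as neighbours.

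**Figure D3:**
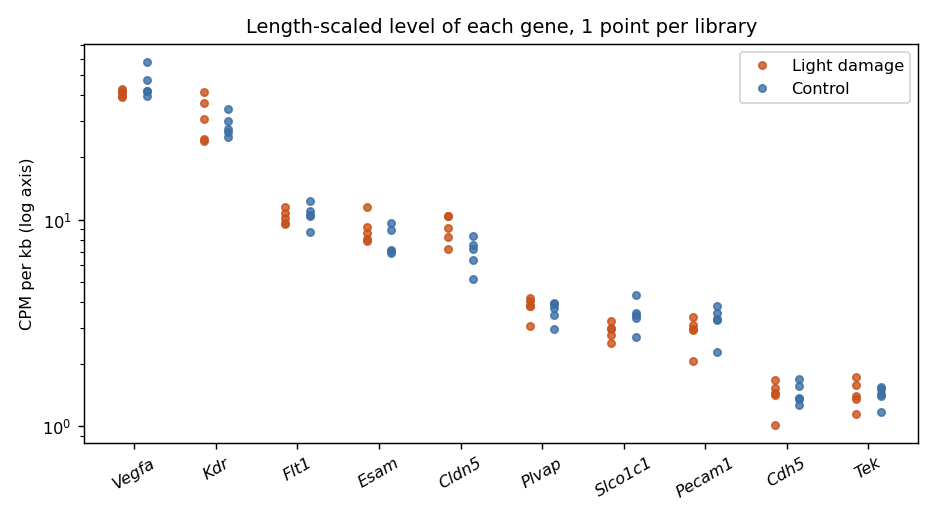
CPM per kilobase of the longest annotated transcript on a log axis, 1 point per library, light-damaged left of control, genes in the order of their mean. Vegfa and Kdr stand at 24.1 CPM per kb or higher in every library, and Cdh5 and Tek at 1.73 or lower.

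Sequence just before the start site is shown for the ligand and its receptors, the genes of highest level per kilobase. The motif GGAAG, the core bound by ETS factors, which are broad activators of endothelial genes, was searched on both strands in the 250 bases before the start. Of the 10 genes, 6 had a RefSeq window (GRCm38.p6), namely Cldn5, Kdr, Flt1, Tek, Vegfa and Slco1c1, and Pecam1, Cdh5, Esam and Plvap had none. GGAAG or its reverse complement was in the windows of Kdr, Flt1, Vegfa and Slco1c1, and in 64.1% of all 32851 windows. A second RefSeq window of Vegfa lies inside the gene and is left out here. The hypoxia response core GCGTG was in the windows of Kdr and Flt1, against 28.2% of all windows. ACGTG, its other form, was in none of the windows used, against 16.6% of all windows, which says only that these letters are not there. The Vegfa window left out held 1 match to ACGTG and 1 to GCGTG. The hypoxia cores overlapped no GGAAG match, and 2 of the Slco1c1 matches share a base. Capitals mark a match, which is a description and not a shown binding site. The stretches lie at chr5:75978647-75978691 (Kdr), chr5:147726115-147726159 (Flt1) and chr17:46032378-46032421 (Vegfa), each on the minus strand and written 5′ to 3′ along the gene.
Kdr: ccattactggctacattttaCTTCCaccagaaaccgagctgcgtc
Flt1: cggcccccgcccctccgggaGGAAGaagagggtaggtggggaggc
Vegfa: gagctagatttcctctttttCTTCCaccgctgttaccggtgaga

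The 10 genes did not form a single pattern across libraries. Light-damaged replicate 5 was lowest of its group for 5 of the 9 genes other than Vegfa, namely Cldn5, Pecam1, Cdh5, Tek and Slco1c1. It was highest of its group for Plvap. Light-damaged replicate 3 was highest of its group for 4 of the 9, namely Kdr, Flt1, Tek and Esam. Averaged over the 9 genes, centred log2 CPM was -0.19 in light-damaged replicate 5 and 0.20 in replicate 3, and between -0.09 and 0.06 in controls. This average thus ranged more widely over light-damaged than over control libraries. Single genes did not all do so. Within-group variation was 23.9% in light-damaged and 12.6% in control libraries for Kdr, but 8.92% in light-damaged and 16.4% in control libraries for Slco1c1. Light-damaged replicates 1 and 2, which stood apart by Xist and lens genes, were at -0.0022 and 0.08. With these replicates left out, log2 fold changes were -0.26 for Pecam1, -0.13 for Cdh5, 0.07 for Kdr, 0.03 for Flt1, 0.02 for Tek, -0.13 for Vegfa, 0.25 for Esam and -0.32 for Slco1c1, none of which passed.

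**Figure D4:**
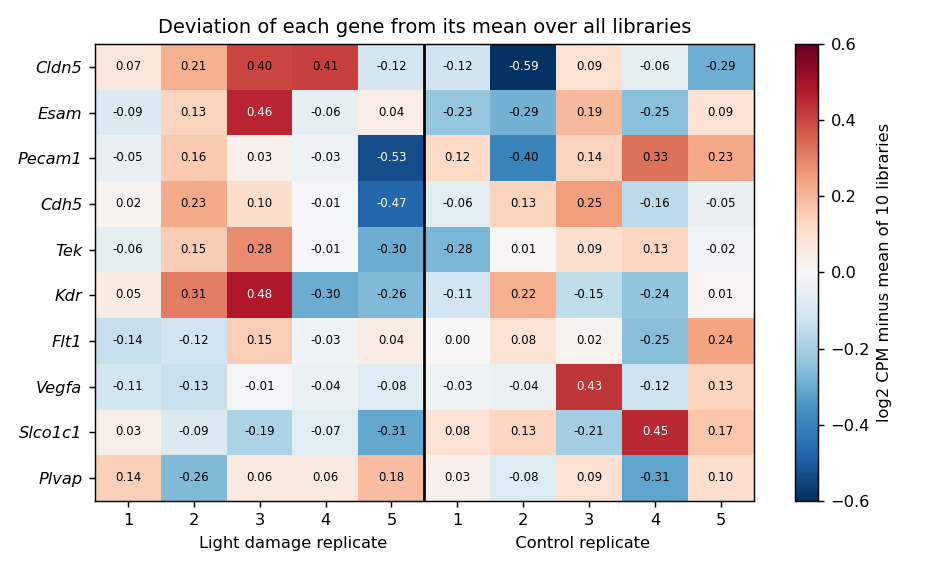
Log2 CPM of each gene minus its mean over all 10 libraries, light-damaged replicates left of the line and controls right of it. Light-damaged replicate 5 is low for Pecam1, Cdh5, Tek and Slco1c1, and replicate 3 is high for Cldn5, Esam, Tek and Kdr.

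Ratios within a library need no scaling between libraries, and 3 were compared by exact two-sided permutation tests, whose smallest p with 5 against 5 libraries is 0.00794. The log2 ratio of Flt1 to Kdr counts, decoy over signaling receptor, was -1.47, -1.71, -1.62, -1.02 and -0.98 in light-damaged replicates and -1.17, -1.42, -1.11, -1.31 and -1.06 in control replicates. Light-damaged replicates 1 to 3 lay below all controls and replicates 4 and 5 above all. The difference of -0.15 did not pass (exact permutation p = 0.397, adjusted over 3 ratios 0.595). Without light-damaged replicates 1 and 2 it was 0.0084. The log2 ratio of Plvap to Cldn5, diaphragm over barrier protein, averaged -0.77 ± 0.33 in light-damaged and -0.45 ± 0.31 in control retina (SD, n = 5 each). That difference of -0.32 did not pass either (exact permutation p = 0.151, adjusted 0.452). Without light-damaged replicate 5 it was -0.44 (exact permutation p = 0.0476, unadjusted), and without light-damaged replicates 1 and 2 it was -0.29 (exact permutation p = 0.286).

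**Figure D5:**
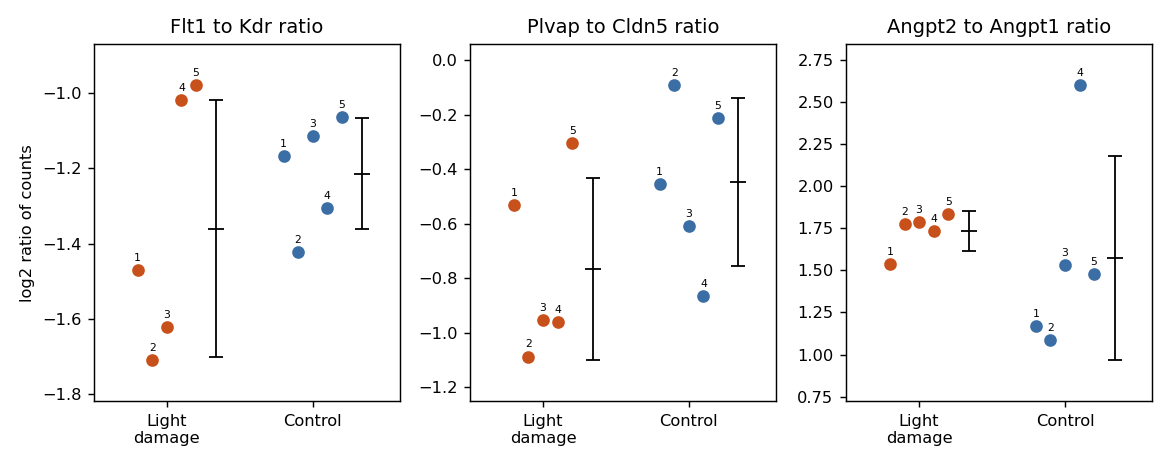
Log2 ratio of 2 genes' counts in each library, numbered by replicate, light-damaged left of control, with the mean and SD of 5 libraries beside the points. For Flt1 to Kdr the light-damaged libraries fall on both sides of the controls. For Angpt2 to Angpt1, control replicate 4 stands at 2.60.

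The ligands of Tek are the angiopoietins. Angpt2, which loosens the vessel wall, averaged 4.29 ± 0.570 CPM in light-damaged and 3.14 ± 0.385 CPM in control retina (SD, n = 5 each), with 4 of 5 light-damaged libraries above the highest control. On the log2 scale its fold change was 0.45 (SE 0.15, edgeR adjusted p = 0.061, 0.0477 by DESeq2). By edgeR it passed without light-damaged replicate 5 (adjusted p = 0.037), and without light-damaged replicates 1 and 2 its adjusted p was 0.291. Angpt1, the steadying ligand, averaged 1.28 ± 0.249 CPM in light-damaged and 1.07 ± 0.311 CPM in control retina (SD, n = 5 each). The log2 ratio of Angpt2 to Angpt1 averaged 1.73 ± 0.12 in light-damaged and 1.57 ± 0.60 in control libraries (exact permutation p = 0.635, adjusted 0.635). Angpt1 counts were low in every library, 17 to 29 in light-damaged libraries and 9 to 26 in controls, with 9 in control replicate 4. Without that replicate the difference was 0.42 (exact permutation p = 0.0159, unadjusted, the smallest 4 against 5 libraries can give). The other 9 ways of leaving out 1 library gave between 0.040 and 0.21. With light-damaged replicates 1 and 2 left out the difference was 0.21 (exact permutation p = 0.607). Of 5 tested genes of the angiopoietin system edgeR called 0, DESeq2 called 1, and 1 had an unadjusted p under 0.05. Of 9 tested VEGF ligands and receptors, edgeR and DESeq2 called 0, and 1 had an unadjusted p under 0.05. That gene was Pgf, a ligand of Flt1, with 1.57 ± 0.643 CPM in light-damaged and 0.813 ± 0.477 CPM in control retina (SD, n = 5 each). The log2 fold change of Pgf was 0.92 (edgeR adjusted p = 0.106), and 0.47 without light-damaged replicates 1 and 2 (adjusted p = 0.541).

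Other endothelial genes were called in both directions. Of 30 tested, edgeR called 2 higher and 1 lower, against 5.32% of all genes higher and 7.85% lower. The median log2 fold change of the list was -0.0011. Clec14a, an endothelial lectin, averaged 2.71 ± 1.15 CPM in light-damaged and 1.34 ± 0.254 CPM in control retina (SD, n = 5 each), which is a log2 fold change of 1.02 (SE 0.28, edgeR adjusted p = 0.0268). It was no longer called in 4 of 10 refits that each dropped a single library, its adjusted p reaching 0.0816 without light-damaged replicate 2. With light-damaged replicates 1 and 2 left out, its log2 fold change was 0.54 (edgeR adjusted p = 0.279). S1pr1, a sphingosine-1-phosphate receptor, rose by a log2 fold change of 0.30 (edgeR adjusted p = 0.0486), a call lost in 7 of those refits, its adjusted p reaching 0.122 without light-damaged replicate 3. Podxl, a sialomucin, fell by 0.26 on the log2 scale (edgeR adjusted p = 0.0361), with all 5 light-damaged libraries below every control. The groups do not overlap, in either direction, for 9.79% of all genes. Podxl was no longer called in 6 of those refits, its adjusted p reaching 0.0863 without light-damaged replicate 3. In control libraries Podxl averaged 40.5 CPM per kb, against 1.45 for Cdh5. Which cells made the Podxl RNA was not tested. Ly6c1, a surface protein of capillaries, had a log2 fold change of 0.39 (edgeR adjusted p = 0.0567, 0.0355 by DESeq2). DESeq2 called 3 genes of the list higher and 1 lower, against 7.7% of all genes higher and 9.44% lower. In the 8 libraries without light-damaged replicates 1 and 2, 0 of the list passed. By limma-voom Clec14a (adjusted p = 0.0748), S1pr1 (0.0559) and Podxl (0.0531) did not pass.

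Of 13 tested junction genes edgeR called 0, DESeq2 called 2 higher and 1 lower, and 5 had an unadjusted p under 0.05. Over all genes edgeR called 13.2% and DESeq2 17.1%, and 30.3% had an unadjusted p under 0.05. No list was tested as a set. F11r (JAM-A) averaged 7.53 ± 1.13 CPM in light-damaged and 5.83 ± 0.570 CPM in control retina (SD, n = 5 each), with all 5 light-damaged libraries above every control (edgeR adjusted p = 0.0648). The groups do not overlap in this way for 9.79% of all genes. Jam2, another junctional adhesion molecule, averaged 141 ± 6.08 CPM in light-damaged and 161 ± 14.7 CPM in control retina (edgeR adjusted p = 0.064). Of 13 barrier transporters 2 rose, the partners Slc7a5 and Slc3a2, which together carry large neutral amino acids. Slc7a5 averaged 71.0 ± 6.84 CPM in light-damaged and 57.4 ± 5.80 CPM in control retina (SD, n = 5 each), which is a log2 fold change of 0.31 (SE 0.08, edgeR adjusted p = 0.0172), and kept its call without any single library. Slc3a2 rose by 0.20 on the log2 scale and was no longer called in 6 of those refits, its adjusted p reaching 0.0892 without light-damaged replicate 1. When light-damaged replicates 1 and 2 were left out, Slc7a5 passed (edgeR adjusted p = 0.0421) and Slc3a2 did not (adjusted p = 0.202). Per kilobase, Slc7a5 averaged 16.3 and Slc3a2 49.5 CPM in control libraries, against 3.47 for Slco1c1. Which cells made the RNA of these partners was not tested.

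Of 9 genes of Norrin signaling through Fzd4, which builds and keeps the barrier of retinal vessels, edgeR called 1 higher and DESeq2 2. Over all genes edgeR called 5.32% higher and DESeq2 7.7%. Apcdd1, a Wnt inhibitor and target of that pathway in retinal endothelium, averaged 28.9 ± 2.13 CPM in light-damaged and 21.7 ± 1.16 CPM in control retina (SD, n = 5 each). In log2 terms the fold change was 0.41 (SE 0.07, edgeR adjusted p = 0.00277), with all 5 light-damaged libraries above every control and the call kept without any single library. With light-damaged replicates 1 and 2 left out, it was 0.35 (edgeR adjusted p = 0.0461). Fzd4 averaged 18.0 ± 1.11 CPM in light-damaged and 20.8 ± 1.52 CPM in control retina, with all 5 light-damaged libraries below every control, but did not pass (log2 fold change -0.21, edgeR adjusted p = 0.0789). The groups do not overlap, in either direction, for 9.79% of all genes. Which cells made the Apcdd1 RNA was not tested.

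Of 12 tested genes that respond to VEGF in endothelium, edgeR called 1 higher and 1 lower, against 5.32% of all genes higher and 7.85% lower. By edgeR 6 of the 12 had an unadjusted p under 0.05, as did 30.3% of all genes. Hes1, a Notch target that Müller glia also make, rose by a log2 fold change of 0.44 (edgeR adjusted p = 0.00823), kept without any single library. Egr3, an immediate early gene of neurons as well, fell by 0.82 on the log2 scale (edgeR adjusted p = 0.031) and was no longer called in 6 of those refits, its adjusted p reaching 0.083 without control replicate 3. Of 6 genes of fenestration and caveolae, Ehd4, an endocytic ATPase, rose by 0.22 on the log2 scale (edgeR adjusted p = 0.0223). It was no longer called in 4 of those refits, its adjusted p reaching 0.0618 without control replicate 5. Of 5 tested genes of endothelial activation, Selplg, which leukocytes and microglia make, rose by 0.68 on the log2 scale (edgeR adjusted p = 0.0402). It was no longer called in 6 of those refits, its adjusted p reaching 0.102 without light-damaged replicate 3. Microglial markers summed to between 80.1 and 154 CPM in light-damaged libraries and between 60.4 and 83.3 CPM in controls, and Csf1r, the receptor microglia need, rose by 0.71 on the log2 scale (edgeR adjusted p = 0.0132, and 0.0818 without light-damaged replicates 1 and 2). Their part in the Selplg values was not tested. With light-damaged replicates 1 and 2 left out, 0 of these 3 lists had a gene called. By limma-voom Egr3 (adjusted p = 0.0557) and Selplg (adjusted p = 0.0637) did not pass.

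Vegfa is a target of the hypoxia-inducible factors, and 22 genes of that system were tested. EdgeR called 3 lower and 1 higher, against 7.85% of all genes lower and 5.32% higher. DESeq2 called 5 lower and 2 higher, against 9.44% of all genes lower and 7.7% higher. Among the 22, 10 had an unadjusted p under 0.05 by edgeR, as did 30.3% of all genes. Hk2, a hexokinase that rods also use, averaged 319 ± 27.8 CPM in light-damaged and 456 ± 32.6 CPM in control retina (SD, n = 5 each), which is a log2 fold change of -0.51 (SE 0.07, edgeR adjusted p = 0.000862). Arnt, the shared partner of these factors, fell by 0.26 on the log2 scale (edgeR adjusted p = 0.0102). Both kept their calls without any single library, and all 5 light-damaged libraries lay below every control. The groups do not overlap, in either direction, for 9.79% of all genes. Ero1a, an oxidase of the endoplasmic reticulum, fell by 0.25 and Vhl, which marks the factors for destruction, rose by 0.23 on the log2 scale. Ero1a was no longer called in 5 and Vhl in 6 of those refits, the edgeR adjusted p reaching 0.0637 without light-damaged replicate 3 and 0.0865 without control replicate 5. The list's median log2 fold change was 0.04, and 14 of its 22 genes had a positive one. With light-damaged replicates 1 and 2 left out, Hk2 alone passed (edgeR adjusted p = 0.0187). Of 10 inhibitors of vessel growth edgeR and DESeq2 called 0, with 1 at an unadjusted p under 0.05.

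Cells that sit beside endothelium were read from their own markers. Of 12 tested genes of pericytes and smooth muscle edgeR called 0, DESeq2 called 1 lower, and 1 had an unadjusted p under 0.05. That gene was Notch3, a receptor that mural cells need, with 5.95 ± 1.15 CPM in light-damaged and 8.18 ± 1.42 CPM in control retina (SD, n = 5 each, edgeR adjusted p = 0.0609). Pericyte markers summed to between 1047 and 1220 CPM in light-damaged libraries and between 920.1 and 1433 CPM in controls. Notch3 at 8.18, Acta2 at 3.57 and Kcnj8 at 2.72 CPM in controls made up little of that sum. It thus rested on other genes of the list, and whether it follows pericytes was not tested. Of 5 tested blood cell genes edgeR and DESeq2 called 0, with 0 at an unadjusted p under 0.05. They summed to between 13.7 and 26.3 CPM in light-damaged libraries and between 14.8 and 19.4 CPM in controls. Fibroblast genes summed to between 27.9 and 183 CPM in light-damaged libraries and between 23.6 and 67.0 CPM in controls, the 2 highest being light-damaged replicates 1 and 2. Astrocyte markers summed to between 97.7 and 218 CPM in light-damaged libraries and between 95.7 and 217 CPM in controls. Of the marker lists of other cells, edgeR called 3 of 9 lens genes, 1 of 9 microglial, 1 of 6 fibroblast and 1 of 8 rod genes higher. Over all genes it called 5.32% higher. All 9 microglial log2 fold changes were positive, and 6 of the 9 had an unadjusted p under 0.05 by edgeR. Of the 8 rod genes only 2 had a positive log2 fold change, with a median of -0.13. With light-damaged replicates 1 and 2 left out, 2 lens genes and 0 of the microglial, fibroblast and rod genes were called. DESeq2 on all libraries called 9 lens, 3 microglial, 2 fibroblast and 1 rod gene higher, against 7.7% of all genes. The fibroblast gene called by edgeR, Mfap4, was no longer called in 9 of those refits and the rod gene, Sag, in 8. Of 7 pigment epithelium and choroid genes and of 6 astrocyte genes edgeR called 0, DESeq2 called 1 of each, and 2 of each had an unadjusted p under 0.05. The part of these cells in the endothelial values was not tested.

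Among 15559 other genes averaging 1 CPM or more, those whose standardised profile over the 10 libraries lay nearest to the mean profile of the 9 genes other than Vegfa were Sema3g, Abi3, Loxl3, Anxa4 and Tulp3. Their root mean square differences were between 0.461 and 0.497 SD. Sema3g, a semaphorin of arterial endothelium, averaged 4.16 CPM in light-damaged and 3.70 CPM in control retina. The 9 genes themselves lay between 0.667 SD (Tek) and 1.52 SD (Slco1c1) from their own mean. Nearest to Vegfa were Zbtb21, 9430060I03Rik, Rnf31, AW046200 and Bms1, at between 0.375 and 0.443 SD. These distances describe 10 libraries that share 2 groups and carry no test.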

How the data were processed

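RNA-seq was run on 10 retinal libraries, 5 per group, with column-purified total RNA and a shared batch entry per the labels. Values are whole-number gene counts as the authors deposited them. In the submitters' processing notes the tools are Bowtie2, RSEM 1.3.1 and DESeq2 1.4.5, the build is GRCm39, and no steps are described. Rounding of RSEM estimates and library strandedness are not stated in those sources. Symbols and transcript lengths came from GENCODE (GRCm38) by Ensembl identifier, matching 19892 identifiers. Promoter windows are RefSeq's.

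Testing used edgeR 4.0.16 under R 4.3.3 (filterByExpr, TMM, robust quasi-likelihood test, group as single term, Benjamini-Hochberg over 16852 genes, call at adjusted p under 0.05). Standard errors came from the F statistic. Intervals cover 95% and assume independent libraries, while counting error assumes independent reads. Log2 CPM used a prior count of 2, and ratios had 0.5 added to each count. Alternatives were DESeq2 1.42.0, limma-voom (limma 3.58.1), other scalings and filters, a replicate block, and dropping libraries. Applying them to list genes was added after seeing the data. Steps were tested on simulated counts. The 10 genes, the 20 other lists and the naming rule (up to 4 genes of lowest p per list, of which those the text needs are given) were chosen with earlier results of these data known. Libraries were checked for duplicates, and none was found. Figures used matplotlib 3.10.9.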

Additional observations from a re-analysis of the deposited data

How the results depend on the processing

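Over 200 fits of the 10 genes under 20 alternatives, 190 kept direction and side of the threshold, 4 brought Cldn5 past it and 6 changed sign. The sign changes were all of log2 fold changes near 0. Dropping a single library gave Cdh5 between -0.10 and 0.060, Flt1 between -0.095 and 0.019 and Tek between -0.037 and 0.11, and Flt1 was 0.033 without light-damaged replicates 1 and 2. The number of the 10 genes called was 0 with 10 libraries, 1 with DESeq2, and between 0 and 1 when 1 library was left out. Over all genes, 2219 calls became between 1127 and 2991 when 1 library was left out, with 399 to 1347 higher and 723 to 1644 lower. Without light-damaged replicates 1 and 2 there were 403 calls, 135 higher and 268 lower. The replicate number served as a block only as an alternative: deviations of same-numbered libraries correlated between 0.0522 and 0.316, and not every library matched its own number best. With the replicate block 1431 genes were higher, 3285 were called in all, and 1 of the 10 genes passed (Cldn5, adjusted p = 0.0212 by edgeR). Light-damaged minus control differences of log2 ratios when 1 library was left out ranged as follows. Flt1 to Kdr lay between -0.24 and -0.058, and was 0.0084 without light-damaged replicates 1 and 2. Plvap to Cldn5 lay between -0.44 and -0.23, and Angpt2 to Angpt1 between 0.040 and 0.42. The causes were not tested. Cdh5, Tek and Plvap had counts of 73 to 170 in every library, where counting error alone gives between 8.46% and 10.3%. Standard errors of their log2 fold changes were 0.14, 0.13 and 0.12, against 0.16 for Kdr, which had at least 2344 counts. How far depth limited detection was not tested.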
